A study of Mus musculus with 11 samples.

Results

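The apoptosis machinery was followed as 37 genes of the 37991 in the deposited count table, chosen by symbol from a list of BCL2 family proteins, mitochondrial death factors, caspases, inhibitors of apoptosis, and death receptors with their adaptors. All 37 had a row, matched through their Ensembl identifiers. Each of 11 mice gave 1 RNA library, made from its right retina at postnatal day 24. There were 3 rd10 mice given GSK2879552 (rd10 GSK), 3 rd10 mice given saline (rd10 saline), 3 wild-type mice given GSK2879552 (wild-type GSK) and 2 wild-type mice given saline (wild-type saline). GSK2879552 is an inhibitor of the histone demethylase LSD1. It was injected intraperitoneally every day at 4.2 mg/kg from day 9 to day 24, and saline was injected on the same schedule, so every animal had been injected. The rd10 strain, labelled B6.CXB1-Pde6brd10/Jrd10, carries a mutant Pde6b, a rod phosphodiesterase gene, in every cell of the body. Wild-type mice were C57Bl/6J, and any other difference between the strains goes with the genotype. The study's title names rod photoreceptor death as its question.

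Apoptosis is carried out by caspases, proteases that are set off along a pair of routes. In the extrinsic route, ligands of the TNF family engage death receptors at the cell surface, and adaptors assemble a complex that activates initiator caspases. In the intrinsic route, BH3-only proteins relieve the hold of antiapoptotic BCL2 proteins on the pore-forming BAX and BAK, mitochondria release cytochrome c, and the apoptosome activates its own initiator caspase, with inhibitors of apoptosis holding caspases in check. In the retina, rods are the most numerous cells and microglia are the resident immune cells that express many receptors of the TNF family.

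Levels are given as CPM (library-scaled counts, with TMM scaling factors). A gene is said to have risen or fallen where edgeR's quasi-likelihood test gave an adjusted p under 0.05 (Benjamini-Hochberg over all 17099 genes tested). Changes are log2 values with their standard error. Of the 37 genes, 36 passed the filter on low counts, and 24 passed the test in at least 1 comparison. The share of all genes that passed in at least 1 was not counted, so the 24 only mark which genes are described. Bcl2a1b, a small antiapoptotic gene with near-identical copies, held between 0 and 9 reads per library and was not tested. In bulk retina, fewer cells of a type and less RNA per cell cannot be told apart.

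In rd10 saline retinas 16 of the 36 tested genes rose over wild-type saline (44.4%) and 4 fell (11.1%). Over all genes tested in that comparison, 21.5% rose and 19.0% fell. The median change of the 36 was 0.24, against 0.02 for all genes. All 7 death receptors and adaptors were among those that rose, with 3 of 5 caspases, 3 of 8 BH3-only genes, 1 of 3 effectors, 1 of 4 antiapoptotic genes and 1 of 3 inhibitors of apoptosis. The 4 that fell were Xiap, Birc2, Bcl2l2 and Cycs. The genes and lists were chosen with earlier results of these data known, so these shares describe them and are no separate evidence.

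GSK2879552 in rd10 retina was followed by 5 genes higher and 2 lower than in rd10 saline (13.9% and 5.56% of 36), where 17.6% of all genes rose and 15.2% fell. Casp12 and Casp6 fell, and Mcl1, Bcl2l2, Xiap, Casp2 and Hrk rose. With only the rd10 groups fitted, Bcl2l2, Hrk, Casp2, Casp6 and Xiap did not pass (edgeR adjusted p-values of 0.0555 to 0.0919). In that fit 11.8% of all genes rose and 9.94% fell. Libraries were also scaled on inner-retina genes, which were the markers of bipolar, amacrine and ganglion cells. In the main fit, 8 of 8 bipolar, 3 of 8 amacrine and 7 of 8 ganglion markers themselves fell between the rd10 groups. This scaling moved the median of all genes to 0.36 on the log2 scale. With it, 21 of the apoptosis genes rose and 1 fell (58.3% and 2.78%), where 55.4% of all genes rose and 2.39% fell. In wild-type retina edgeR called 0 of the 36 genes in either direction with the inhibitor, against 0.444% of all genes that rose and 0.0877% that fell there. At an unadjusted p under 0.05, 2 genes were higher (Hrk and Cflar) and 0 lower in that comparison, limma-voom called 0, and DESeq2 called 1, Cflar, as higher. The main fit covers all 11 libraries, and the number of calls depended on this. With only the wild-type groups fitted, 1 of 35 genes rose and 0 fell (2.86% and 0%). In that fit 3.53% of all genes rose and 2.11% fell.

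Between the genotypes under the inhibitor, 14 genes were higher and 2 lower in rd10 GSK than in wild-type GSK (38.9% and 5.56%), where 15.4% of all genes rose and 10.9% fell. Scaled on inner-retina genes, with the median of all genes at 0.20, 22 rose and 1 fell (61.1% and 2.78%), where 36.8% of all genes rose and 3.09% fell. The comparison shares no library with that of the saline groups. Of the apoptosis genes that rose, 12 did so in both, which is 85.7% of those under the inhibitor and 75% of those under saline. Over all genes, 1744 rose in both, which is 66.4% of those under the inhibitor and 47.5% of those under saline. Of the apoptosis genes that fell, Cycs and Xiap did so in both, which is 100% of those under the inhibitor and 50% of those under saline. Over all genes, 1146 fell in both, which is 61.6% of those under the inhibitor and 35.3% of those under saline. The difference between the effects of the inhibitor in the 2 genotypes was tested as an interaction. It was negative for 2 genes, Casp12 and Cflar (5.56%), and positive for 0, where 4.98% of all genes gave a negative and 7.49% a positive interaction. At an unadjusted p under 0.05 the interaction was negative for 3 and positive for 4 of the genes with edgeR, and by adjusted p limma-voom called 2 and 0 while DESeq2 called 1 and 1.

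**Figure D1:**
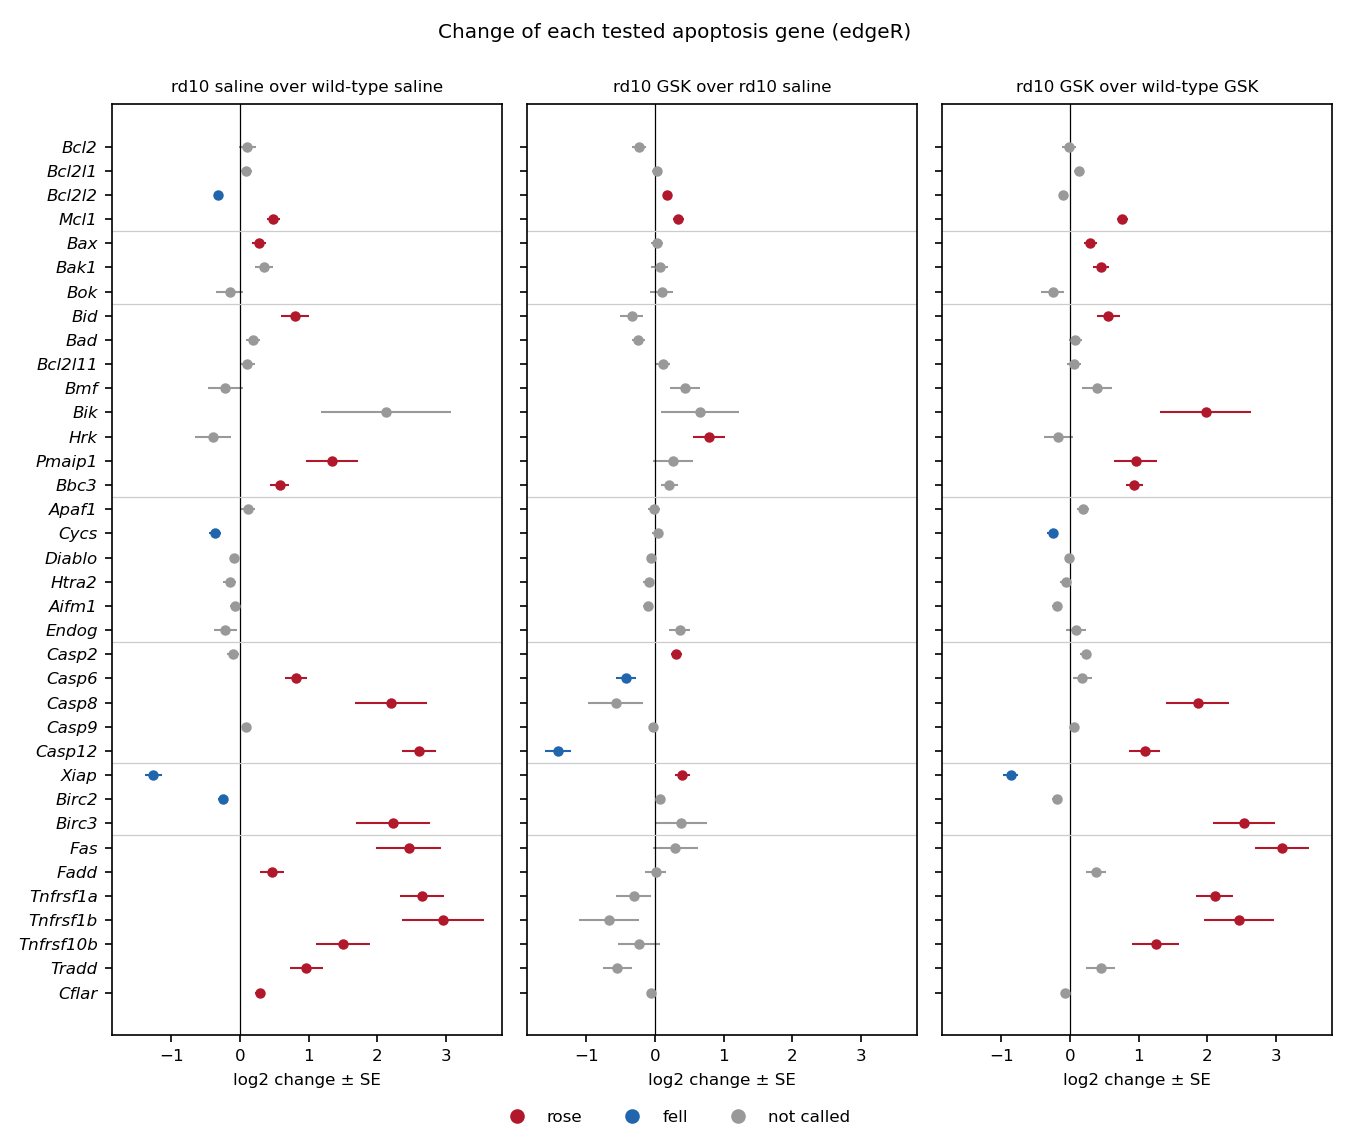
Log2 change with its standard error of each of the 36 tested apoptosis genes in 3 comparisons, on a common axis, with genes grouped by class from antiapoptotic BCL2 proteins at the top to death receptors and adaptors at the bottom. Red points rose, blue points fell and grey points did not pass the test. The death receptors lie to the right in both genotype comparisons, and Casp12 is the farthest to the left when rd10 GSK is set over rd10 saline.

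For every death receptor and adaptor, all rd10 saline libraries were above both wild-type saline libraries. The share of all genes separated in this way was not counted, so this describes these genes only. Tnfrsf1a (GRCm38 chr6:125349362-125362484, plus strand), which encodes the TNF receptor with a death domain, stood at 63.9, 43.9 and 27.7 CPM in rd10 GSK, 56.5, 62.3 and 49.0 in rd10 saline, 10.0, 9.80 and 11.6 in wild-type GSK, and 8.57 and 9.22 in wild-type saline. All rd10 libraries lay above all wild-type libraries, and rd10 GSK spread more widely than rd10 saline. Its change in rd10 saline over wild-type saline was 2.65 ± 0.32, an edgeR adjusted p of 0.000291, or 6.28-fold. Tnfrsf1b (chr4:145213463-145246870, minus strand), the TNF receptor that lacks a death domain, stood at 21, 7.47 and 5.43 CPM in rd10 GSK, 13.9, 19.9 and 20.6 in rd10 saline, 2.02, 2.18 and 1.93 in wild-type GSK, and 2.82 and 1.84 in wild-type saline. The rd10 saline libraries were all above the wild-type ones (edgeR log2 change 2.96 ± 0.60, adjusted p = 0.00452), and rd10 GSK replicate 1 was above the highest of them while replicates 2 and 3 were below the lowest. Fas (chr19:34290666-34327772, plus strand), the receptor of Fas ligand, stood at 4.70, 3.55 and 1.58 CPM in rd10 GSK, 2.88, 2.77 and 2.35 in rd10 saline, 0.243, 0.488 and 0.413 in wild-type GSK, and 0.383 and 0.571 in wild-type saline. Every rd10 library was above every wild-type library, with an edgeR log2 change 2.46 ± 0.47, adjusted p = 0.0015 between the saline groups and 3.09 ± 0.40 (adjusted p = 0.000562) between the GSK groups. Fas rested on 6 to 13 reads per wild-type library.

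Tnfrsf10b, the mouse receptor for TRAIL, stood at 2.93, 2.91 and 1.32 CPM in rd10 GSK, 3.14, 3.23 and 2.03 in rd10 saline, 1.25, 1.09 and 0.642 in wild-type GSK, and 0.909 and 1.05 in wild-type saline. It was lowest among the rd10 libraries in rd10 GSK replicate 3, still above all wild-type libraries (edgeR log2 change 1.5 ± 0.39, adjusted p = 0.0098 in rd10 saline over wild-type saline). Tradd, the adaptor of the TNF receptor, stood at 5.55, 4.38 and 3.76 CPM in rd10 GSK, 6.11, 7.80 and 6.25 in rd10 saline, 4.08, 2.82 and 3.16 in wild-type GSK, and 2.68 and 4.17 in wild-type saline. The rd10 saline libraries lay above all others, with an edgeR log2 change 0.97 ± 0.24, adjusted p = 0.00746 over wild-type saline. Fadd, the adaptor that recruits Casp8, stood at 8.48, 9.41 and 6.96 CPM in rd10 GSK, 6.90, 9.28 and 8.48 in rd10 saline, 6.39, 5.67 and 7.06 in wild-type GSK, and 5.26 and 6.54 in wild-type saline. Groups ran close for Fadd, and its edgeR log2 change over wild-type saline was 0.47 ± 0.18 with an adjusted p of 0.0485, called in 4 of 20 other settings. Cflar encodes cFLIP, which holds Casp8 in check at the receptor, and stood at 61.6, 60.9 and 56.1 CPM in rd10 GSK, 62.5, 58.9 and 64.9 in rd10 saline, 60.8, 61.9 and 65.3 in wild-type GSK, and 47.6 and 53.8 in wild-type saline. Here the wild-type saline libraries were the low ones and the other 3 groups overlapped, so that rd10 saline was above wild-type saline (edgeR log2 change 0.29 ± 0.07, adjusted p = 0.00697) while rd10 GSK and wild-type GSK gave -0.07 ± 0.06 (adjusted p = 0.427).

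With GSK2879552 in rd10 retina, 0 of the 7 receptor and adaptor genes passed the test in either direction by edgeR, at an unadjusted p under 0.05 only Tradd did, with a lower value, limma-voom called Tradd as lower, and DESeq2 called 0. Their changes ran from -0.67 ± 0.44 for Tnfrsf1b to 0.30 ± 0.33 for Fas. For Tnfrsf1a, Tnfrsf1b, Fas and Tnfrsf10b, rd10 GSK replicate 1 was the highest of its group and replicate 3 the lowest. Without rd10 GSK replicate 1, Tnfrsf1b fell (-1.48, adjusted p = 0.000212 by edgeR), as did Tnfrsf1a (-0.64, adjusted p = 0.0214) and Tradd (-0.71, adjusted p = 0.0192). Under the inhibitor, 4 of the 7 were higher in rd10 than in wild type: Fas, Tnfrsf1b (2.47 ± 0.51, adjusted p = 0.01 by edgeR), Tnfrsf1a (2.11 ± 0.27, adjusted p = 0.00139) and Tnfrsf10b (1.25 ± 0.34, adjusted p = 0.0197).

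Markers of microglia and macrophages rose with these genes between the saline groups and fell between the rd10 groups, where none of the 7 passed the test. All 12 rose in rd10 saline over wild-type saline, 10 of 12 fell in rd10 GSK over rd10 saline, and 11 of 12 rose in rd10 GSK over wild-type GSK. Their summed level was 108 to 254 CPM in rd10 GSK, 410 to 503 CPM in rd10 saline, 61.7 to 67.6 CPM in wild-type GSK and 60.4 to 60.5 CPM in wild-type saline. None of the 12 was at 0 in any library. Within rd10 GSK the sum was 254, 174 and 108 CPM in replicates 1, 2 and 3, the same order of libraries as for Tnfrsf1a, Tnfrsf1b, Fas and Tnfrsf10b. Rod markers ran the other way there, at 28000, 44500 and 54200 CPM. Markers of other cells also moved. Of 8 markers of Mueller glia, 6 rose in rd10 saline over wild-type saline and 6 fell in rd10 GSK over rd10 saline, with sums of 4630 to 6170 CPM in rd10 GSK, 8220 to 9320 in rd10 saline, 6610 to 6750 in wild-type GSK and 5950 to 6100 in wild-type saline. Of 8 bipolar cell markers, 6 rose and 8 fell in the same comparisons, with sums of 1550 to 1610 CPM in rd10 GSK, 2190 to 2250 in rd10 saline, 1910 to 1940 in wild-type GSK and 1850 in both wild-type saline libraries. Of 6 markers of endothelium and pericytes, 2 rose and 2 fell, with sums of 459 to 557 CPM in rd10 GSK, 769 to 876 in rd10 saline, 385 to 462 in wild-type GSK and 480 to 483 in wild-type saline. Of 7 T and NK cell markers 3 were tested, of which 2 rose and 1 fell in these comparisons, and the sum of all 7 was 2.05 to 2.74 CPM in rd10 GSK, 2.88 to 3.32 in rd10 saline, 2.20 to 2.48 in wild-type GSK and 0.878 to 1.01 in wild-type saline. Cd3e, which defines T cells, was at 0.277 CPM or less in every library and at 0 in both wild-type saline libraries. The part of any of these cell types in the receptor values was not tested.

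**Figure D2:**
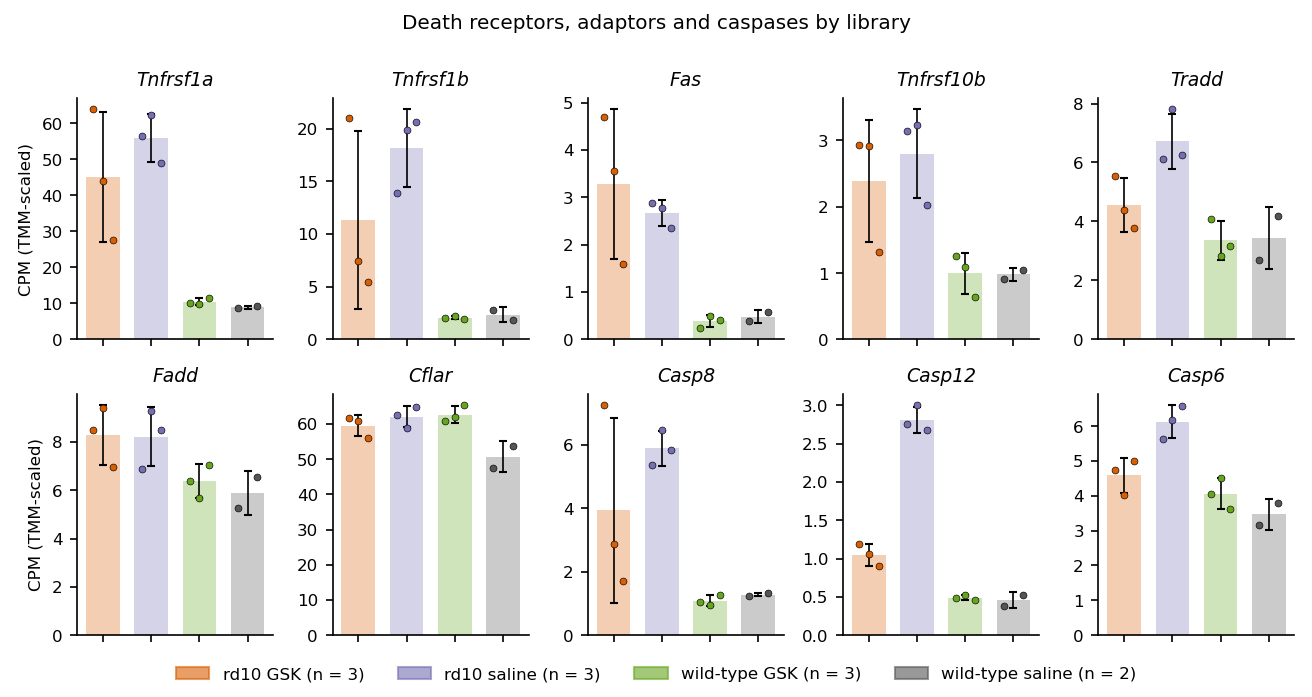
CPM of the 7 death receptor and adaptor genes and 3 caspases in each library. Points are libraries, bars are group means and error bars are the SD, with n in the legend and each panel on its own axis from 0. The rd10 libraries stand above the wild-type ones for the 4 receptors, rd10 GSK is the most spread group for Tnfrsf1a, Tnfrsf1b, Fas and Casp8, and Casp12 in rd10 GSK lies between the rd10 saline and wild-type libraries.

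Casp12 and Casp8 were the caspases with the largest changes between the saline groups. Casp12 (GRCm38 chr9:5345430-5373032, plus strand), a mouse caspase of the inflammatory branch that has been tied to stress of the endoplasmic reticulum, stood at 1.19, 1.06 and 0.897 CPM in rd10 GSK, 2.75, 3.00 and 2.68 in rd10 saline, 0.485, 0.526 and 0.458 in wild-type GSK, and 0.383 and 0.527 in wild-type saline. The 3 rd10 GSK libraries lay below the 3 rd10 saline libraries and above all 5 wild-type ones, with no overlap. By edgeR it had a log2 change of 2.61 ± 0.25, adjusted p = 1.71e-05 in rd10 saline over wild-type saline, of -1.41 ± 0.19, adjusted p = 0.000284 in rd10 GSK over rd10 saline, and of 1.09 ± 0.23, adjusted p = 0.00605 in rd10 GSK over wild-type GSK. The counts behind it were low, at 21 to 31 reads in rd10 GSK, 63 to 66 in rd10 saline and 8 to 14 in wild type. Casp8 (chr1:58795374-58847503, plus strand), the initiator at death receptors, stood at 7.25, 2.86 and 1.71 CPM in rd10 GSK, 5.37, 6.46 and 5.84 in rd10 saline, 1.05, 0.939 and 1.28 in wild-type GSK, and 1.24 and 1.32 in wild-type saline. The rd10 saline libraries were close together, while rd10 GSK ran from above the wild-type libraries to above all rd10 saline libraries. Casp8 rose in rd10 saline over wild-type saline (edgeR log2 change 2.20 ± 0.52, adjusted p = 0.00771) and in rd10 GSK over wild-type GSK (1.86 ± 0.46, adjusted p = 0.0157). Between the rd10 groups its change was -0.57 ± 0.40 (adjusted p = 0.313), and without rd10 GSK replicate 1 it was -1.36, adjusted p = 0.000486.

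Casp6, an executioner caspase, stood at 4.74, 4.01 and 5.00 CPM in rd10 GSK, 5.63, 6.18 and 6.57 in rd10 saline, 4.04, 4.51 and 3.62 in wild-type GSK, and 3.16 and 3.78 in wild-type saline. The rd10 saline libraries were above all others (edgeR log2 change 0.82 ± 0.16, adjusted p = 0.00196 over wild-type saline), and the rd10 GSK libraries lay below them (-0.42 ± 0.14, adjusted p = 0.0381). The fall under the inhibitor was near the threshold and was called in 9 of 20 other settings. Casp2, an initiator outside the main routes, stood at 23.2, 28.5 and 25.5 CPM in rd10 GSK, 20.7, 19.9 and 21.7 in rd10 saline, 21.5, 23.6 and 20.7 in wild-type GSK, and 22.1 and 22.4 in wild-type saline. It was higher in all rd10 GSK libraries than in rd10 saline (edgeR log2 change 0.31 ± 0.08, adjusted p = 0.0157) and gave no call between the saline groups (-0.10 ± 0.09). Casp9, the initiator of the apoptosome, lay between 39.1 and 43.5 CPM in all 11 libraries and passed no test. The microglial markers given above rose between the saline groups, as did Casp12, Casp8 and Casp6. These markers fell between the rd10 groups, as did Casp12 and Casp6. Mueller glia markers (6 of 8 rose, 6 fell) and bipolar markers (6 of 8 rose, 8 fell) moved the same way. Within rd10 GSK, Casp12 and Casp8 were highest in replicate 1 and lowest in replicate 3, as the microglial sum was. Casp6 was instead highest in replicate 3. The part of any of these cells was not tested.

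The start sites of the 4 genes with the largest rises between the saline groups are shown because these genes led that comparison. Between the rd10 groups Casp12 alone of the 4 passed the test. The window runs from upstream of each RefSeq start to just past it, 5′ to 3′ on the gene's strand, on GRCm38.p6. Capitals mark matches to TTCNNNGAA, a spacing bound by STAT proteins. The windows are Tnfrsf1b chr4:145246821-145247120, minus strand, Tnfrsf1a chr6:125349473-125349772, plus strand, Casp12 chr9:5345226-5345525, plus strand, and Fas chr19:34290409-34290708, plus strand.
Tnfrsf1b: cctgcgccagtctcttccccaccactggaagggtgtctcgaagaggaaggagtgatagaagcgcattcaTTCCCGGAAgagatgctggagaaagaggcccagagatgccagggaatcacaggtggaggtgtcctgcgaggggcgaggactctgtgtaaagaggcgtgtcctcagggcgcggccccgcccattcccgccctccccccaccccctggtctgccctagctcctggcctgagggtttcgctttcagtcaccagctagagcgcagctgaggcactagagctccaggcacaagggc
Tnfrsf1a: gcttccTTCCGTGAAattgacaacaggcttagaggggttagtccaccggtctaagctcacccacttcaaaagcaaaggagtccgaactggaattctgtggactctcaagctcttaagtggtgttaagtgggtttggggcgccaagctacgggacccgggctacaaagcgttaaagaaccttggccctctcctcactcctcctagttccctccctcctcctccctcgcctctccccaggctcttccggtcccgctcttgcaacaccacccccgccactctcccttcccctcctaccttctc
Casp12: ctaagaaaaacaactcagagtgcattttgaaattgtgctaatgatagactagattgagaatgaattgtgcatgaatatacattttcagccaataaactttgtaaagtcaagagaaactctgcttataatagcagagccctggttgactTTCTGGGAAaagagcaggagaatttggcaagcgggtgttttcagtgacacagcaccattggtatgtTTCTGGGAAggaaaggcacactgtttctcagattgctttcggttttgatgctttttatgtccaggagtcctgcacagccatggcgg
Fas: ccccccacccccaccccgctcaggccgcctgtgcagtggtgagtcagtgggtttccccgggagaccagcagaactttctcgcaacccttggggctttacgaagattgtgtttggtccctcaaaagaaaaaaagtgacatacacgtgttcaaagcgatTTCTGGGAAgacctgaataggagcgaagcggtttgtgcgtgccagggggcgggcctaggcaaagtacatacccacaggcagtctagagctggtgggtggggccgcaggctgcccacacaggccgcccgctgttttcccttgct
Matches began 181 bases before the start in Tnfrsf1b, 244 in Tnfrsf1a, 102 and 36 in Casp12, and 93 in Fas. RefSeq gave 43 promoters for 32 of the 37 genes, and 4 of the 43 (9.3%) held this motif, those of the 4 genes shown. Of all 32851 promoters of the same length, 8.3% held it, so the share among the apoptosis genes was close to that of promoters at large. The motifs were chosen with the expression results known, on both strands, and the STAT motif reads the same on both. The interferon-response core GAAANNGAA was in 3 of the 43 (6.98%, against 8.56% of all), in Cflar, Tnfrsf1b and Xiap. The NF-kB site was in 4 (9.3%, against 4.51%), in Aifm1, Bbc3, Bcl2l1 and Bmf. The CRX site TAATCC was in 1, Bax (2.33%, against 7.06%), and the SP1 GC box GGGCGG in 28 (65.1%, against 35.7%). A match describes letters only, and binding was not measured.

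Xiap, which blocks initiator and executioner caspases directly and is on the X chromosome (GRCm38 chrX:42059679-42109656, plus strand), was the inhibitor of apoptosis with the highest level per kilobase of exon. It stood at 271, 327 and 370 CPM in rd10 GSK, 259, 210 and 266 in rd10 saline, 582, 570 and 606 in wild-type GSK, and 604 and 572 in wild-type saline. The rd10 GSK libraries lay above the rd10 saline libraries, and all 6 rd10 libraries lay below all 5 wild-type ones. Xiap fell by 1.26 ± 0.12 on the log2 scale in rd10 saline over wild-type saline (edgeR adjusted p = 2.09e-05), which is 2.40-fold lower. It rose in rd10 GSK over rd10 saline (edgeR log2 change 0.40 ± 0.11, adjusted p = 0.0178) and was below wild-type GSK (-0.86 ± 0.11, adjusted p = 0.000619). Without rd10 GSK replicate 3, its change between the rd10 groups was 0.29, adjusted p = 0.0508.

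Rod markers moved with Xiap. All 10 fell in rd10 saline over wild-type saline, all 10 rose in rd10 GSK over rd10 saline, and 8 of 10 fell in rd10 GSK over wild-type GSK. Their sum was 28000 to 54200 CPM in rd10 GSK, 9720 to 11800 CPM in rd10 saline, 65400 to 68400 CPM in wild-type GSK and 69600 to 71200 CPM in wild-type saline, and within rd10 GSK it was lowest in replicate 1 and highest in replicate 3, as Xiap was. The part of rods in the Xiap values was not tested. Xist, the transcript of the inactive X chromosome, was at 0.338 CPM or less in 4 libraries (rd10 GSK 1 and 3, rd10 saline 2 and wild-type GSK 2) and at 780 CPM or more in the others. With a term for high Xist in the model, an alternative chosen after seeing the data, Xiap gave -1.22, adjusted p = 5.58e-05 between the saline groups by edgeR and 0.45, adjusted p = 0.0123 between the rd10 groups.

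Birc3, a ubiquitin ligase of TNF receptor complexes (GRCm38 chr9:7848699-7873186, minus strand), stood at 4.59, 2.77 and 1.07 CPM in rd10 GSK, 1.96, 2.35 and 2.19 in rd10 saline, 0.404, 0.488 and 0.550 in wild-type GSK, and 0.479 and 0.439 in wild-type saline. All rd10 libraries were above all wild-type libraries, which held 10 to 13 reads each, and rd10 GSK replicates 1 and 2 were above every rd10 saline library while replicate 3 was below. The edgeR log2 change was 2.23 ± 0.54, adjusted p = 0.0068 for rd10 saline over wild-type saline, and it was 2.54 ± 0.45 (adjusted p = 0.00316) for rd10 GSK over wild-type GSK. Its close relative Birc2 stood at 44.0, 40.3 and 45.5 CPM in rd10 GSK, 43.2, 39.1 and 40.9 in rd10 saline, 51.6, 48.2 and 48.0 in wild-type GSK, and 46.7 and 51.3 in wild-type saline. All wild-type libraries were above all rd10 libraries, and the fall in rd10 saline was small (edgeR log2 change -0.25 ± 0.07, adjusted p = 0.016). Birc2 and Birc3 went in opposite directions between the saline groups, and neither passed the test between the rd10 groups (Birc3 0.38 ± 0.38, Birc2 0.07 ± 0.07).

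Among the antiapoptotic BCL2 genes, Mcl1 rose and Bcl2l2 fell in rd10 saline. Mcl1 (GRCm38 chr3:95658788-95663176, plus strand), which encodes a short-lived guard of the mitochondrion, stood at 191, 161 and 145 CPM in rd10 GSK, 135, 131 and 127 in rd10 saline, 98.3, 95.4 and 99.9 in wild-type GSK, and 89.8 and 97.1 in wild-type saline. The order was rd10 GSK above rd10 saline above wild type, with no overlap between those. Within rd10 GSK it was highest in replicate 1, which had the highest microglial and the lowest rod marker sum of that group. Between the rd10 groups the order was the other way. Mcl1 was higher in rd10 GSK, where the microglial sum was lower and the rod sum higher than in rd10 saline. The part of those cells was not tested. Mcl1 rose with an edgeR log2 change of 0.49 ± 0.09, adjusted p = 0.0017 in rd10 saline over wild-type saline, again in rd10 GSK over rd10 saline (0.34 ± 0.08, adjusted p = 0.00808), and in rd10 GSK over wild-type GSK (0.76 ± 0.08, adjusted p = 0.000213). Bcl2l2, which encodes BCL-W, stood at 135, 144 and 150 CPM in rd10 GSK, 129, 126 and 123 in rd10 saline, 151, 158 and 150 in wild-type GSK, and 160 and 155 in wild-type saline. The rd10 GSK libraries lay above rd10 saline and at or below the wild-type range. Bcl2l2 fell in rd10 saline over wild-type saline (edgeR log2 change -0.32 ± 0.06, adjusted p = 0.000843) and rose in rd10 GSK over rd10 saline (0.18 ± 0.05, adjusted p = 0.017). Bcl2l1, which encodes BCL-xL, lay between 91.8 and 113 CPM and Bcl2 between 15.1 and 21.9 CPM over all libraries, and neither passed any test.

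Per kilobase of exon in GENCODE M21, which lets genes be compared, Mcl1 was the highest of the 37 in both rd10 groups and Xiap in both wild-type groups. Mcl1 had a mean of 48.5 CPM per kilobase in rd10 GSK, 38.3 in rd10 saline, 28.6 in wild-type GSK and 27.3 in wild-type saline. Xiap had 34.1 CPM per kilobase in rd10 GSK, 25.9 in rd10 saline, 61.9 in wild-type GSK and 62.1 in wild-type saline. Bcl2l2 was the next gene in both wild-type groups, at 34.2 CPM per kilobase in wild-type GSK and 35.4 in wild-type saline, and Bcl2l1 came after Mcl1, Xiap and Bcl2l2 in all 4 groups. Below it came Bax in rd10 GSK and in wild type, and Tnfrsf1a in rd10 saline at 21.6 CPM per kilobase. No test was made of this order.

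The pore-forming effectors moved little. Bax stood at 33.6, 29.4 and 28.7 CPM in rd10 GSK, 30.1, 33.3 and 26.5 in rd10 saline, 24.4, 24.8 and 25.3 in wild-type GSK, and 24.9 and 24.3 in wild-type saline. All rd10 libraries were above all wild-type ones by a small margin (edgeR log2 change 0.28 ± 0.10, adjusted p = 0.0394 in rd10 saline over wild-type saline, and 0.30 ± 0.09, adjusted p = 0.0261, in rd10 GSK over wild-type GSK). The call under saline held in 6 of 20 other settings. Bak1, the other main pore protein, stood at 29.4, 23.6 and 20 CPM in rd10 GSK, 21.6, 25.4 and 22.6 in rd10 saline, 18.0, 18.0 and 17.4 in wild-type GSK, and 17.8 and 18.8 in wild-type saline. All rd10 libraries were above all wild-type ones. It passed the test under the inhibitor (edgeR log2 change 0.45 ± 0.12, adjusted p = 0.0172 in rd10 GSK over wild-type GSK) and not under saline (0.35 ± 0.13, adjusted p = 0.0587), and the interaction for it was 0.11 ± 0.18. Bok lay between 5.74 and 8.97 CPM in all libraries and passed no test.

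BH3-only genes rose in rd10 retina in part. Bbc3 encodes PUMA, a target of p53, and stood at 7.32, 7.94 and 7.22 CPM in rd10 GSK, 6.90, 6.23 and 6.33 in rd10 saline, 3.56, 4.47 and 3.62 in wild-type GSK, and 4.40 and 4.26 in wild-type saline. Every rd10 library was above every wild-type library (edgeR log2 change 0.58 ± 0.14, adjusted p = 0.00546 under saline, and 0.94 ± 0.12, adjusted p = 0.000496, under the inhibitor). Pmaip1, which encodes NOXA, stood at 1.54, 1.71 and 2.18 CPM in rd10 GSK, 0.873, 2.08 and 1.58 in rd10 saline, 0.768, 1.05 and 0.963 in wild-type GSK, and 0.479 and 0.703 in wild-type saline. Its rd10 values were scattered, and rd10 saline replicate 1 was within the wild-type range (edgeR log2 change 1.34 ± 0.38, adjusted p = 0.0153 under saline). Bid, which carries the signal of Casp8 to mitochondria, stood at 9.48, 7.29 and 5.51 CPM in rd10 GSK, 8.99, 10.2 and 9.13 in rd10 saline, 5.38, 4.43 and 5.32 in wild-type GSK, and 5.74 and 5.09 in wild-type saline. The rd10 saline libraries were above the wild-type ones (edgeR log2 change 0.80 ± 0.20, adjusted p = 0.0071), and rd10 GSK replicate 3 was at the wild-type level. Bid also passed under the inhibitor (0.56 ± 0.17, adjusted p = 0.0339), as did Pmaip1 (0.96 ± 0.31, adjusted p = 0.0382).

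Hrk, a BH3-only gene whose product binds antiapoptotic BCL2 proteins, was the member of its class that rose with GSK2879552 in rd10 retina, at 1.85, 2.77 and 2.52 CPM in rd10 GSK, 1.62, 1.11 and 1.38 in rd10 saline, 3.03, 2.22 and 2.75 in wild-type GSK, and 2.01 and 1.58 in wild-type saline. The rd10 GSK libraries were above the rd10 saline libraries (edgeR log2 change 0.79 ± 0.23, adjusted p = 0.0191), and the wild-type GSK libraries were above the wild-type saline libraries without passing the test (0.57 ± 0.25, adjusted p = 0.526). The interaction for Hrk was 0.22 ± 0.33. Bik stood at 0.694, 0.646 and 0.171 CPM in rd10 GSK, 0.349, 0.323 and 0.284 in rd10 saline, 0.0808, 0.0751 and 0.229 in wild-type GSK, and 0 and 0.132 in wild-type saline, on 0 to 18 reads per library. It passed the test in rd10 GSK over wild-type GSK (edgeR log2 change 1.98 ± 0.66, adjusted p = 0.0462), with overlap between those libraries. Bad, Bcl2l11 and Bmf passed no test. Their levels over all libraries were 15.5 to 21.5 CPM for Bad, 15.7 to 23.6 CPM for Bcl2l11 and 22.2 to 41.4 CPM for Bmf.

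**Figure D3:**
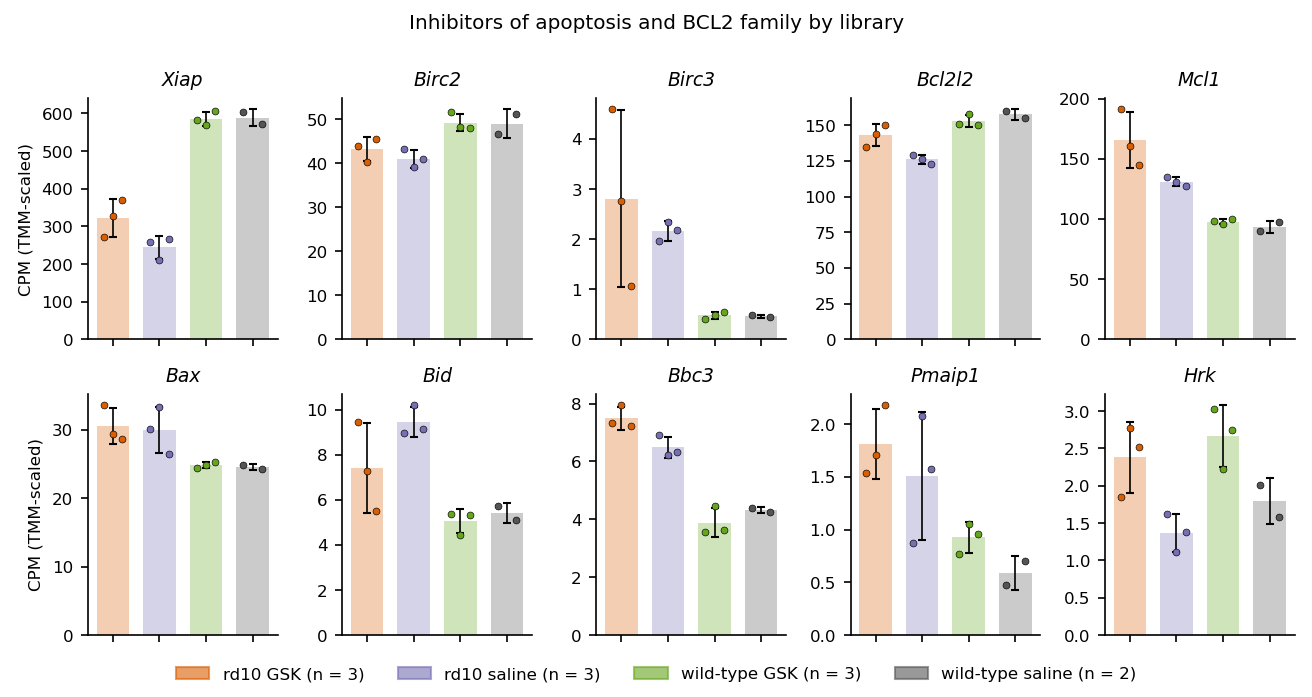
CPM of 3 inhibitors of apoptosis and 7 BCL2 family genes in each library, drawn as points with group means (bars) and SD (error bars), each panel on its own axis from 0. Xiap in rd10 GSK lies between rd10 saline and wild type, Mcl1 is highest in rd10 GSK, and Birc3 runs opposite to Birc2 between the genotypes.

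Of the apoptosome and mitochondrial factors, Cycs passed a test. It encodes cytochrome c, also a carrier of the respiratory chain, and stood at 20.3, 18.8 and 21.9 CPM in rd10 GSK, 21.4, 20.3 and 17.8 in rd10 saline, 24.1, 24.3 and 24 in wild-type GSK, and 25.9 and 24.8 in wild-type saline. All rd10 libraries were below all wild-type libraries (edgeR log2 change -0.36 ± 0.09, adjusted p = 0.00847 under saline, and -0.25 ± 0.08, adjusted p = 0.0428, under the inhibitor). Apaf1, the scaffold of the apoptosome, lay between 22.4 and 29.3 CPM. Diablo and Htra2, whose products antagonize inhibitors of apoptosis, lay at 45.9 to 53.7 CPM and 18.8 to 24.6 CPM. Aifm1 and Endog, which act on nuclear DNA without caspases, lay at 23.2 to 29.3 CPM and 8.16 to 13.0 CPM. Between the saline groups the log2 changes of these 5 ran between -0.21 ± 0.17 (Endog) and 0.12 ± 0.10 (Apaf1), and none passed edgeR there, nor had an unadjusted p under 0.05. In rd10 GSK over rd10 saline the widest among them was Endog at 0.36 ± 0.15 (adjusted p = 0.089 by edgeR).

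The interaction separated 2 genes. For Casp12 the inhibitor's change was -1.41 ± 0.19 in rd10 and 0.10 ± 0.29 in wild type, and the interaction was -1.51 ± 0.35 with an edgeR adjusted p of 0.0158. For Cflar it was -0.06 ± 0.06 in rd10 and 0.30 ± 0.07 in wild type, where all wild-type GSK libraries lay above the wild-type saline libraries, and the interaction was -0.37 ± 0.10 with an adjusted p of 0.0288. Wild-type saline, the low group for Cflar, has 2 animals. Without wild-type saline replicate 1 the interaction was -1.31, adjusted p = 0.0929 for Casp12 and -0.28, adjusted p = 0.154 for Cflar. Xiap (0.40 ± 0.17, adjusted p = 0.142), Mcl1 (0.28 ± 0.12, adjusted p = 0.176) and Casp6 (-0.64 ± 0.21, adjusted p = 0.0729) did not pass it.

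**Figure D4:**
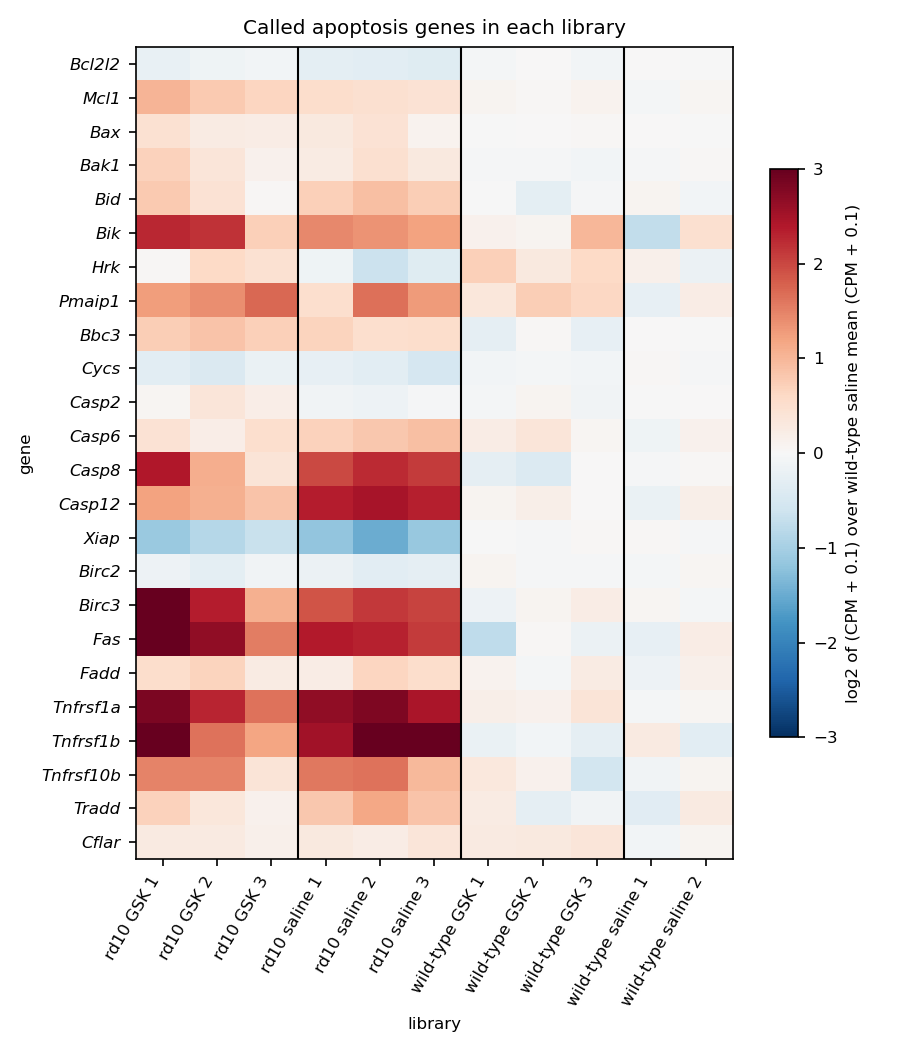
Level of the 24 apoptosis genes that passed a test in at least 1 comparison, in each of the 11 libraries, as the log2 ratio of CPM plus 0.1 to the wild-type saline mean plus 0.1. Red is higher and blue lower, with the colour scale ending at 3 on either side. Casp12 is paler in rd10 GSK than in rd10 saline in every library, while Fas, Birc3, Casp8 and the TNF receptors are darkest in rd10 GSK replicate 1 within that group.

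A wider list of 42 other apoptosis genes (ligands, further receptors, signalling partners, nucleases, other inhibitors) had 39 rows and 37 tested genes. In rd10 saline over wild-type saline 8 rose and 6 fell (21.6% and 16.2%, against 21.5% and 19.0% of all genes). In rd10 GSK over rd10 saline 7 rose and 5 fell (18.9% and 13.5%, against 17.6% and 15.2% of all genes). These shares were close to those of all genes. In wild-type GSK over wild-type saline edgeR called 0. In that wild-type comparison 2 were higher and 2 lower at an unadjusted p under 0.05, and limma-voom and DESeq2 also called 0. In rd10 GSK over wild-type GSK 9 rose and 3 fell (24.3% and 8.11%, against 15.4% and 10.9% of all genes). The interaction was positive for 1, Ngfr (0.57 ± 0.11), and negative for 1, Dapk1 (-0.29 ± 0.09). That is 2.70% in each direction, below the 7.49% positive and 4.98% negative of all genes. The highest rises between the saline groups were in the Naip family, which encodes sensors of bacterial proteins named for a resemblance to inhibitors of apoptosis: Naip5 at 5.08 ± 0.72, Naip6 at 4.68 ± 0.87 and Naip2 at 3.75 ± 0.68. These are related copies of a family, so the split of reads between them is uncertain. They held 1 to 9 reads in each wild-type library, while Naip2 held 85 to 130 in rd10 saline.

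Dffa, the inhibitor of the nuclease that cuts DNA in apoptosis, and Acin1, which acts in chromatin condensation, fell by little in rd10 saline over wild-type saline (edgeR log2 change for Dffa -0.29 ± 0.06, for Acin1 -0.31 ± 0.07). In rd10 GSK over rd10 saline, Cideb (0.82 ± 0.18), the nuclease gene Dffb (0.63 ± 0.15) and Ngfr (0.34 ± 0.07), a neurotrophin receptor, rose, and Naip6 (-2.14 ± 0.53), Birc5 (-1.19 ± 0.36) and Naip5 (-1.11 ± 0.38) fell.

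Libraries held 19657030 to 28053367 counts. Transcripts of the lens summed to 7110 CPM in rd10 GSK replicate 2 and 689 CPM in wild-type saline replicate 2, against at most 14.4 CPM elsewhere. Without both, the counts of apoptosis genes that rose and fell were 8 and 3 in rd10 saline over wild-type saline, where 11.5% of all genes rose and 11.9% fell, and 8 and 1 in rd10 GSK over wild-type GSK, where 8.37% rose and 4.31% fell. Between the saline groups, 8 rose and 3 fell without wild-type saline replicate 1 (12.5% and 12.8% of all genes), and 11 rose and 3 fell without replicate 2 (12.8% and 12.6% of all genes). Casp8, Birc3, Tnfrsf10b, Fadd and Bax passed in neither of these, Bid and Birc2 did not pass without replicate 2, and Pmaip1, Tradd, Cflar and Cycs did not pass without replicate 1, with adjusted p-values of 0.0519 to 0.31 by edgeR. Bcl2l2, Mcl1, Casp6, Casp12, Xiap, Fas and Tnfrsf1a were called in all 20 other settings of that comparison. Between the rd10 groups this held for Mcl1 and Casp12. There Hrk, Casp2 and Casp6 did not pass without rd10 GSK replicate 2, nor Bcl2l2 and Xiap without rd10 GSK replicate 3, nor Hrk without rd10 saline replicate 2. Casp6 also did not pass without any single rd10 saline replicate or without wild-type GSK replicate 1 (edgeR adjusted p-values of 0.0508 to 0.147 over all of these). Without rd10 GSK replicate 1, Bid (-0.55), Bad (-0.28) and Bcl2 (-0.29) also fell between the rd10 groups and Endog (0.54) rose. In rd10 GSK over wild-type GSK, Mcl1, Bbc3, Casp12, Xiap, Birc3, Fas, Tnfrsf1a and Tnfrsf1b were called in all 20 other settings. There 7 to 9 genes rose without 1 of the wild-type GSK replicates, where 8.97% to 10.4% of all genes did, and Bax, Bak1, Bid, Bik, Pmaip1, Cycs, Casp8 and Tnfrsf10b each failed to pass without at least 1 single library (edgeR adjusted p-values of 0.0501 to 0.15).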

How the data were processed

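Read counts per gene were deposited by the authors as 1 table of raw whole-number counts for 37991 Ensembl genes in 11 libraries. Per the submitters' processing notes, reads were converted with bcl2fastq, aligned with HISAT2 2.1.0 and counted with HTSeq, and the builds NCBIM37 and mm9 are named. Neither HTSeq's strand setting nor its annotation was stated. Per the labels' protocols, polyA RNA went into stranded libraries. With the annotation of GENCODE M21, 10 of the 37 genes share exonic bases with another gene of the table, Bcl2l2 on its own strand (Gm20521) and Bcl2, Bak1, Bid, Bad, Diablo, Htra2, Endog, Casp9 and Fadd on the opposite strand, so their counts are less certain. Gene names and coordinates (GRCm38) came from GENCODE M21, the table itself holding no coordinates, and promoters from RefSeq (GRCm38.p6).

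Low genes were removed by edgeR's filterByExpr at a minimum count of 10 and a total of 15. The rest were scaled by TMM (trimmed mean of M values) and fitted with edgeR 4.0.16 in R 4.3.3, with 1 coefficient per group over all 11 libraries, robust quasi-likelihood dispersions and Benjamini-Hochberg adjustment over 17099 genes. The common biological coefficient of variation was 0.129. Limma 3.58.1 (voom) and DESeq2 1.42.0 were alternatives, and the test was tried on simulated data. The apoptosis genes and all lists were chosen with earlier results of these data known. Every apoptosis gene was accounted for, values in every library were printed for those passing at least 1 test, and other pathway genes were named if they were among the 3 largest changes in a direction that passed with at least 1 CPM; some are not reported here. P-values measure the spread between animals, pooled over the groups in the main fit, and the number of animals limits the precision. That spread was unequal. Between libraries of the same group, the chi-square per gene was 32.4 to 49.4 in rd10 GSK and 6.48 to 16.3 in rd10 saline. It was 3.72 to 6.94 in wild-type GSK and 4.41 in wild-type saline. Same-numbered replicates were checked for pairing: their deviations correlated between -0.19 and 0.39, so the numbers were not taken as pairs. A term for Xist was added after seeing the data.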

Additional observations from a re-analysis of the deposited data

Results flagged for a closer look

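Results were flagged where the effect of GSK2879552 in rd10 retina differed from its effect in wild-type retina by the interaction test of edgeR. Casp12 had an interaction of -1.51 on the log2 scale (adjusted p = 0.0158): it was lower in each rd10 GSK library than in each rd10 saline library, while the wild-type groups overlapped. Cflar had an interaction of -0.37 (adjusted p = 0.0288), with wild-type GSK above wild-type saline in all libraries and the rd10 groups overlapping. The interaction of Casp12 was called in 16 of 19 other settings and that of Cflar in 9 of 19. Groups of 2 or 3 libraries are too small for a test of single outlying libraries, but the fit was repeated without each library in turn.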

How the results depend on the processing

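Of 198 counts of called apoptosis genes under other settings, 145 were equal to the reported count or within 1.5 times of it. These include counts of 0 set against a reported 0. The reported count was 0 in both directions of wild-type GSK over wild-type saline and for the positive interaction. There most settings also gave 0, with little to call, so the 145 overstates how stable the other counts were. Shares of all genes called moved too. Without rd10 GSK replicate 1, 19.4% of all genes rose and 17.9% fell between the rd10 groups, against 17.1% and 25.7% of the apoptosis genes. The interaction was then positive for 10.2% and negative for 8.27% of all genes, against 8.57% and 11.4%. Without rd10 GSK replicate 3, 23.2% of all genes rose between the saline groups, against 50%. Between the GSK groups 14.3% of all genes then fell, against 11.1%. In rd10 saline over wild-type saline, leaving out a library gave 8 to 18 genes that rose (16 reported) and 3 to 4 that fell (4). In rd10 GSK over rd10 saline it gave 3 to 6 that rose (5) and 1 to 9 that fell (2), the 9 without rd10 GSK replicate 1. In the interaction it gave 0 to 3 positive (0) and 0 to 4 negative (2), and in rd10 GSK over wild-type GSK 7 to 14 that rose (14) and 1 to 4 that fell (2). In wild-type GSK over wild-type saline it gave 0 throughout.

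Scaling on inner-retina genes moved the median of all genes to 0.36 in rd10 GSK over rd10 saline, 0.26 in the interaction, 0.20 in rd10 GSK over wild-type GSK and -0.04 in rd10 saline over wild-type saline. With it 21 rose and 1 fell between the rd10 groups, where 55.4% of all genes rose and 2.39% fell. The interaction was positive for 9 and negative for 1 (25% and 2.78%), where it was positive for 28.6% and negative for 1.54% of all genes. Between the GSK groups 22 rose and 1 fell, where 36.8% of all genes rose and 3.09% fell. Some genes without a reported call took the other sign and passed: Apaf1 0.34, Diablo 0.29, Htra2 0.26, Aifm1 0.25, Casp9 0.32 and Cflar 0.29 between the rd10 groups, Casp9 0.23 in the interaction and Diablo 0.19 between the GSK groups. All 8 values were smaller than the median of all genes under that scaling.

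Leaving out the lens-bearing libraries left 1 animal in wild-type saline. Fewer apoptosis genes and fewer of all genes then passed in every comparison that had called apoptosis genes. With only the compared groups fitted, 1 rose and 1 fell between the rd10 groups, where 11.8% of all genes rose and 9.94% fell. Between the wild-type groups 1 rose, against 3.53% of all genes, and between the GSK groups 1 fell, against 9.56% of all genes. The interaction uses all 4 groups and had no such fit. DESeq2 gave 1 that fell between the rd10 groups, against 9.99% of all genes, and 1 that rose between the wild-type groups, against 0.588%. Its interaction was positive for 1 and negative for 1, against 5.65% and 4.11% of all genes. Without the filter on low counts, 1 fell between the rd10 groups and 1 between the GSK groups, against 9.21% and 6.83% of all genes. DESeq2 size factors in edgeR gave 4 that fell between the GSK groups, against 11.9% of all genes. With the replicate block, 1 interaction was negative and 1 gene fell between the GSK groups, against 4.08% and 10.5% of all genes. Between the saline groups 17 rose with it, against 20.4% of all genes. The numbers did not pair the samples. The causes were not tested.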
